A study of Homo sapiens with 8 samples.

Results

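The genes described here encode the subunits, regulators and assembly chaperones of the proteasome, measured in THP-1 macrophages treated with low-dose epirubicin and LPS. Members were taken by symbol, as every gene named PSMA, PSMB, PSMC, PSMD, PSME, PSMF or PSMG followed by a number. The choice was made with earlier results of these data known. A probe set naming 1 gene was found for 44 of the 48 genes that RefSeq lists under these symbols, out of 17687 genes with a probe set in the series. PSMC5, PSMD7, PSMD13 and PSME2 had no such probe set in the annotation used and are not analysed here. Each of the 44 genes had 1 probe set. Within the family, the interferon-inducible members PSMB8, PSMB9, PSMB10 and PSME1 were set against the other 40 genes, and PSME2, the fifth of them, is missing from this contrast.

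THP-1 is an established human monocytic leukaemia line, which PMA (100 ng/mL, 18 h) turns into adherent macrophage-like cells, and all 4 groups received PMA. Untreated cells had neither agent, the LPS group received LPS (100 ng/mL) for 3 h, the EPI group received epirubicin (0.25 µg/mL) for 24 h, and the EPI+LPS group received epirubicin for 24 h and then LPS for 3 h. LPS is the bacterial lipopolysaccharide that activates TLR4, and epirubicin is an anthracycline that intercalates into DNA. Each group had 2 Clariom S HT arrays, 8 in all, called duplicates 1 and 2 here. No source used here states the origin of the duplicates, so the spread behind every p-value is that among the arrays and could be technical alone.

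The proteasome degrades proteins tagged with ubiquitin. Its core particle is a barrel of stacked rings, in which alpha subunits form the outer rings and gate the entrance, and beta subunits form the inner rings and hold the proteolytic sites. The 19S regulatory particle recognises, unfolds and feeds in the substrate with a ring of ATPases and a set of other subunits, while the PA28 and PA200 activators open the core without ubiquitin. Interferons replace the catalytic subunits PSMB6, PSMB7 and PSMB5 by PSMB9, PSMB10 and PSMB8 in newly made cores, which gives the immunoproteasome, known for cutting peptides that fit MHC class I molecules.

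The promoters of the immunoproteasome genes are shown first, because PSMB8 and PSMB9 flank the peptide transporter gene TAP1 on chromosome 6 and the LPS results below differ between these neighbours. PSMB8 lies at chr6:32840717-32844679, TAP1 at chr6:32845209-32853704 and PSMB9 at chr6:32854192-32859851 (RefSeq, GRCh38.p14). TAP1 and PSMB9 are transcribed away from each other, and their promoter windows overlap at the outer ends. Each window runs from 250 bases before to 50 bases after a transcription start, 5′ to 3′ on the strand of the gene, with matches to the searched motifs in capitals.
PSMB9 (plus strand, chr6:32853942-32854241): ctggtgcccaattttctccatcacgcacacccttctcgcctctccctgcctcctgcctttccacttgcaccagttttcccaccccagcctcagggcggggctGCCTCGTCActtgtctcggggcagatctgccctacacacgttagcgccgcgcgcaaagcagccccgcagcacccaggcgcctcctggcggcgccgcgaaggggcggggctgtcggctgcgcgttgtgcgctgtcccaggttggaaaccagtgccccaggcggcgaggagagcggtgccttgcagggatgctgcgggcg
TAP1, the first start of the table used (minus strand, chr6:32853655-32853954): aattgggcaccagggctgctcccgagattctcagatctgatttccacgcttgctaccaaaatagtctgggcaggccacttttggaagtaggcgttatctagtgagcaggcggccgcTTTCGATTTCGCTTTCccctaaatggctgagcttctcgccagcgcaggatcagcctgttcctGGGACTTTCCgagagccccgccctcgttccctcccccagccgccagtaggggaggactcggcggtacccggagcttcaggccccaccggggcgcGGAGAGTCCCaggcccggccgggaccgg
PSMB8, the second start (minus strand, chr6:32843998-32844297): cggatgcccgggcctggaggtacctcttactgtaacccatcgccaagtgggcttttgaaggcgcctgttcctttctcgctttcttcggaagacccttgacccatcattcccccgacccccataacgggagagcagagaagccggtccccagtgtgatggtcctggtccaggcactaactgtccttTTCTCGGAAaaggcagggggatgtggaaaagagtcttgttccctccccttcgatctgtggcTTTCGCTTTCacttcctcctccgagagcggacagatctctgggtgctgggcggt
PSMB10 (minus strand, chr16:67936801-67937100): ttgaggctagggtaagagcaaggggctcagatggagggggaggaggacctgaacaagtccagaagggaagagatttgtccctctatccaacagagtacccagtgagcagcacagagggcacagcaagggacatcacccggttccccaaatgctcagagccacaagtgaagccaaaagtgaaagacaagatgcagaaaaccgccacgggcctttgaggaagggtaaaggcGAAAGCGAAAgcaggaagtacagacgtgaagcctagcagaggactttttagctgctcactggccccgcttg

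Both strands were searched for 4 motifs, namely the interferon-stimulated response element (ISRE, a pair of GAAA stretches with any 2 bases between them), the gamma-activated site (GAS, TTCNNNGAA), the antioxidant response element (ARE, TGACNNNGC) and an NF-κB motif, given by its name alone. Among 35116 RefSeq promoter windows of this length, 3.57% held the ISRE, 7.66% the GAS, 13.3% the ARE and 11.3% the NF-κB motif. The PSMB10 window held an ISRE at −21 to −12 from the start, and the second PSMB8 window held an ISRE at −4 to 6 and a GAS at −65 to −57. The first PSMB8 window (chr6:32844630-32844929, not shown) held none of the 4 motifs. Neither did the windows of PSMA6 and PSMD11, which are not shown either. In the TAP1 window shown, a pair of overlapping ISREs covered −134 to −125 and −128 to −119, and NF-κB motifs lay at −72 to −63 and 23 to 32. PSMB9 had an ARE at −148 to −140 and none of the other 3 motifs in its window. The ISREs and the NF-κB motif before the TAP1 start also lie upstream of PSMB9, beyond the end of its window. Of the 38 measured proteasome genes with a window in the table, 6 held an ISRE in any of their windows, 8 a GAS, 13 an ARE and 2 an NF-κB motif. These are counts of genes, some with several windows, while the shares above are of single windows, so they cannot be compared directly. The ISRE was found in the windows of PSMA4, PSMB4, PSMB8, PSMB10, PSME1 and PSMG4. In the LPS results below, PSMB8 and PSMB10 were called lower and the other 4 were not called. A match is a stretch of letters, and its use in these cells was not measured.

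The authors normalized all arrays together and deposited 1 log2 expression value per probe set, so that a difference of 1 is a 2-fold change. Array medians over the 21448 gene probe sets lay between 5.75 and 5.84, and duplicates correlated at 0.985 to 0.987 across probe sets, against 0.947 to 0.984 between conditions. For the proteasome genes, the median gap between duplicates was 0.196 and the largest 1.16 (PSMG4 in the LPS group). Of 14 macrophage markers, 11 lay at 6 or above on every array, while MRC1 and MARCO lay under 6 on all of them. Of 9 lymphocyte markers, 7 lay under 6 on every array, as did 7 of 9 epithelial and fibroblast markers. The summed lymphocyte markers ranged from 8.34 to 9.19 (log2) without LPS and from 8.75 to 9.75 with LPS, and the summed epithelial and fibroblast markers from 8.36 to 8.98 and from 8.42 to 9.04. With LPS, CD79A, SPI1, LYZ and KRT14 (under 6 on every array) were higher at an adjusted p of at most 0.05. CD14, CSF1R, FCGR1A and DCN (also under 6 on every array) were lower at the same threshold. With epirubicin, as the mean of the effects without and with LPS, CD14 (−1.53) and FCGR1A (−1.33) were lower at that threshold. No other listed marker passed it with epirubicin. The part of these shifts in the results below was not tested. In bulk RNA, fewer cells with a transcript and less transcript per cell cannot be told apart.

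After 3 h of LPS, the 3 catalytic subunit genes of the immunoproteasome were lower, PSMB10 only just past the threshold. Their 3 constitutive counterparts did not pass the test, and these sets of genes were not tested against each other. The LPS effect was estimated as the mean of the effects without and with epirubicin (4 arrays against 4) in 1 limma model over all groups, and in what follows a gene rose or fell where its Benjamini-Hochberg adjusted p over 21448 probe sets was at most 0.05. By this measure, 4 proteasome genes rose (PSMA6, PSMD11, PSMA3 and PSME3), 6 fell (PSMB9, PSMB8, PSMB10, PSMG1, PSMG3 and PSMC2) and 34 did neither. These are 9.09% and 13.6% of the 44 genes, beside 8.26% and 11.9% of all probe sets, many of which were dim. Among probe sets with a group mean of at least 6, 14.2% rose and 21% fell. These shares were higher than the 9.52% and 14.3% of the 42 proteasome genes at that level. At the threshold of the study, an unadjusted p of at most 0.01 with a change of at least 2-fold, 3 genes were higher and 3 lower, beside 5.49% and 6.76% of all probe sets. The median change was 0.10 over the 44 genes, −0.94 over the 4 inducible genes and 0.14 over the other 40. It was −0.03 over all probe sets and −0.15 over those with a group mean of at least 6.

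**Figure D1:**
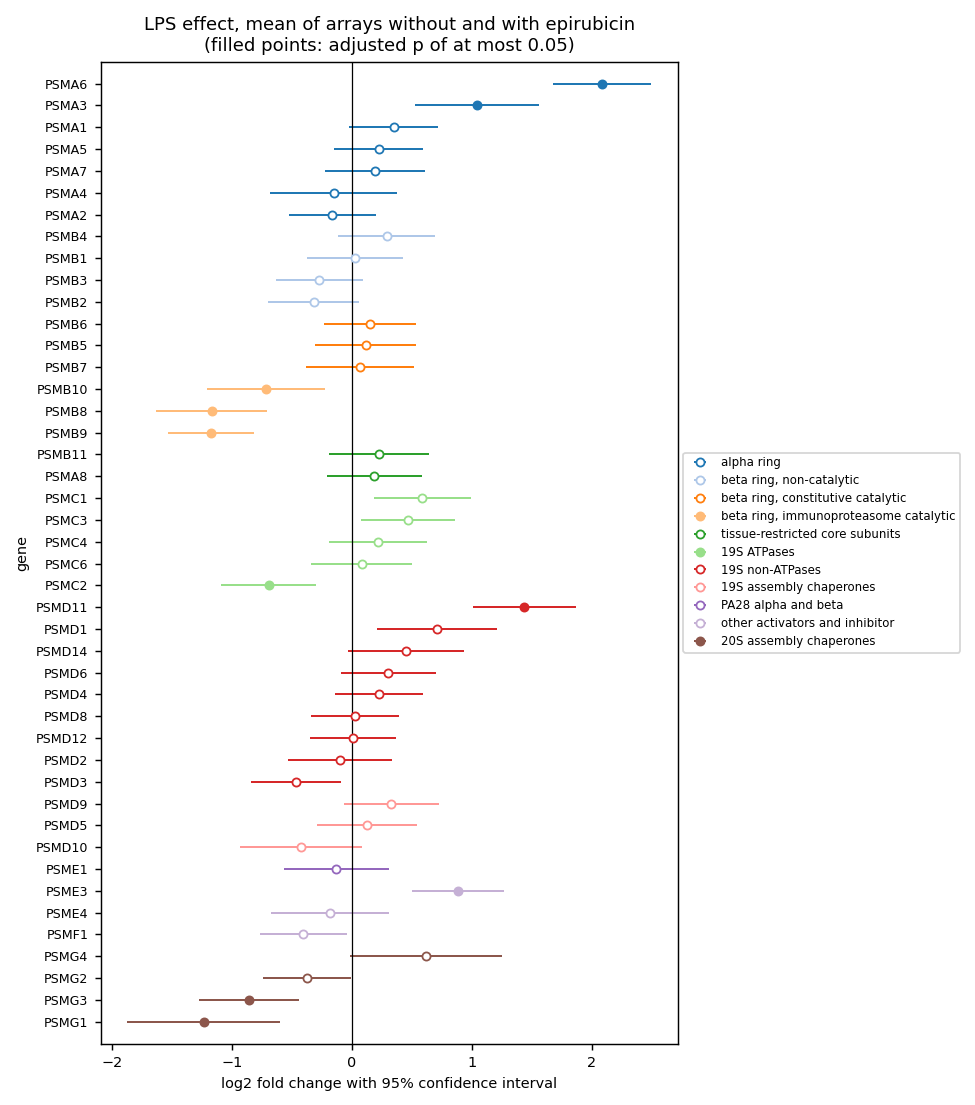
The change with LPS (horizontal axis, log2 fold change, mean of the effects without and with epirubicin) of each of the 44 proteasome genes (rows, coloured by role), with 95% confidence intervals from the limma model and filled points for an adjusted p of at most 0.05. PSMB8, PSMB9 and PSMB10 lie between −1.18 and −0.72, their counterparts PSMB5, PSMB6 and PSMB7 between 0.06 and 0.15, and PSMA6 stands at 2.09.

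PSMB9, the inducible beta-1 subunit, measured 12.61 and 12.53 in untreated cells, 11.17 and 11.32 with LPS, 12.82 and 12.93 with epirubicin, and 11.80 and 11.87 with both. All 4 LPS arrays lay below the 4 arrays without LPS. It fell by 1.18 on the log2 scale (standard error 0.16, adjusted p = 0.00107), which is 2.26-fold, and the call held without any single array.

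PSMB8, the inducible beta-5 subunit, measured 13.67 and 13.60 in untreated cells, 12.43 and 12.60 with LPS, 13.45 and 13.44 with epirubicin, and 11.85 and 12.59 with both. The arrays with and without LPS did not overlap, although the EPI+LPS duplicates differed by 0.74. PSMB8 fell by 1.17 (standard error 0.20, adjusted p = 0.00422), and without EPI+LPS duplicate 1 the value was −0.98 (adjusted p = 0.0107).

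PSMB10, the inducible beta-2 subunit, measured 11.34 and 11.12 in untreated cells, 10.70 and 10.82 with LPS, 11.47 and 11.59 with epirubicin, and 10.15 and 10.98 with both. Again the arrays with LPS lay below those without, by a smaller margin. It fell by 0.72 (standard error 0.21, adjusted p = 0.0491), a call that was lost on leaving out any array other than EPI+LPS duplicate 2, with values from −0.92 to −0.51 and an adjusted p of up to 0.137.

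PSME1, which encodes the alpha subunit of the PA28 activator, measured 12.02 and 11.93 in untreated cells, 12.24 and 11.81 with LPS, 11.58 and 11.98 with epirubicin, and 11.31 and 11.62 with both. Here the arrays overlapped. The LPS effect was −0.13 with a 95% interval from −0.57 to 0.31 (adjusted p = 0.716), so the fourth inducible gene did not pass the test with the other 3.

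None of the constitutive catalytic subunits passed the test with LPS. PSMB5, which PSMB8 replaces, measured 11.32 and 11.81 in untreated cells, 11.96 and 11.85 with LPS, 12.05 and 11.77 with epirubicin, and 11.74 and 11.86 with both, a change of 0.11 (95% interval −0.31 to 0.53). PSMB6, which PSMB9 replaces, changed by 0.15 (interval −0.23 to 0.53) and PSMB7, which PSMB10 replaces, by 0.06 (interval −0.39 to 0.51). The 3 intervals reach up to 0.53 and down to −0.39, and do not reach the values of PSMB8 or PSMB9. Subtracting the median of the other 40 genes from that of the 4 inducible genes gave −1.08 with LPS, a description without a test. The spread of this difference between duplicates, taken on single arrays, was 0.173 (SD).

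**Figure D2:**
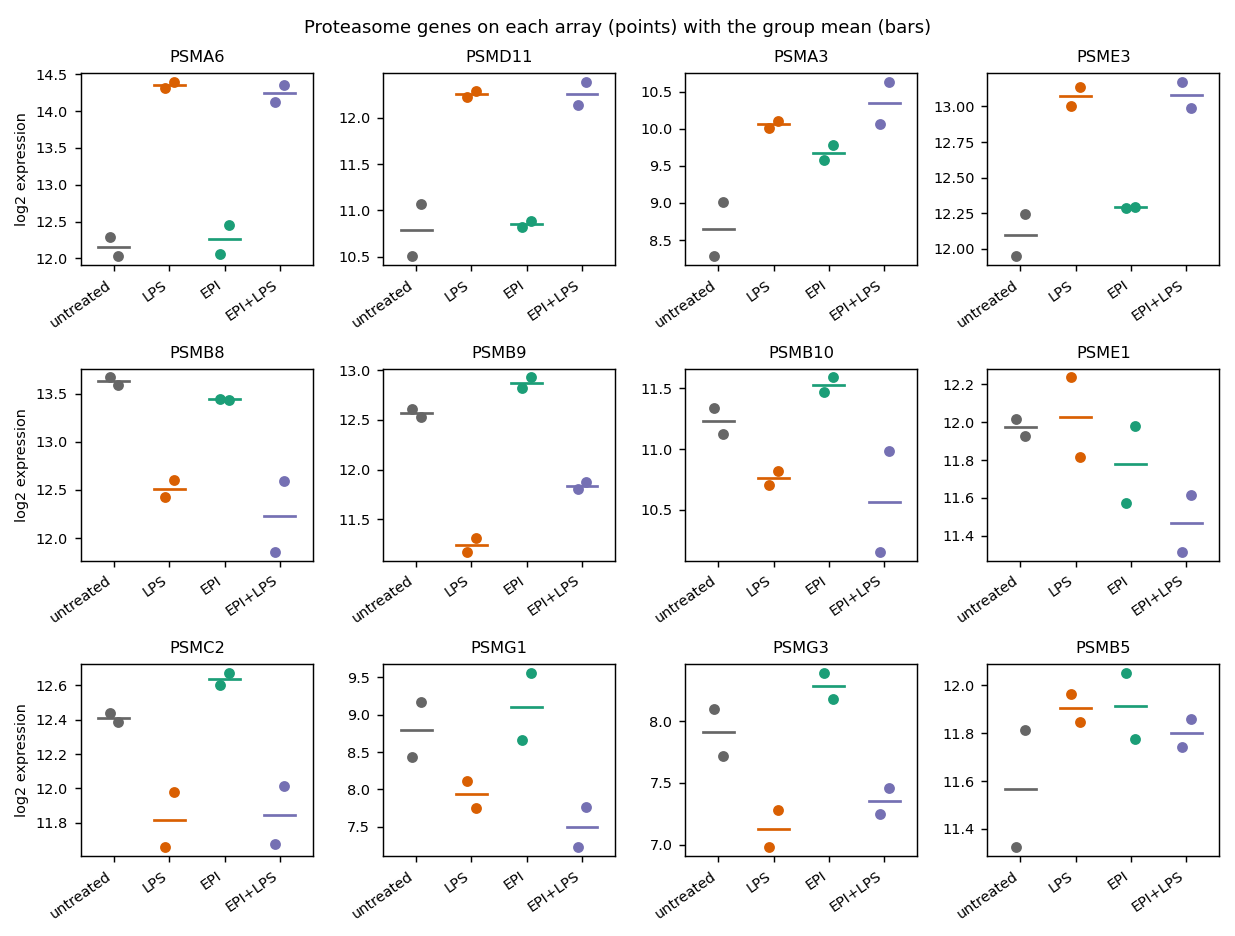
Log2 expression (vertical axes, each on its own scale) of 12 proteasome genes on each array (points) in the 4 groups, with the mean of the 2 duplicates (bars). PSMA6 and PSMD11 separate by LPS with gaps over 1, PSMB8, PSMB9 and PSMB10 are lower with LPS, and PSME1 and PSMB5 show no separation by LPS.

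The largest change of the family was in the alpha ring. PSMA6, the alpha-1 subunit (chr14:35278558-35317493), measured 12.29 and 12.03 in untreated cells, 14.31 and 14.39 with LPS, 12.06 and 12.45 with epirubicin, and 14.12 and 14.35 with both. It rose by 2.09 (standard error 0.18, adjusted p = 8.59e-05), or 4.25-fold, and all 14 alternative settings kept the call. PSMA3, the alpha-7 subunit, measured 8.28 and 9.01 in untreated cells, 10.00 and 10.11 with LPS, 9.58 and 9.78 with epirubicin, and 10.06 and 10.63 with both. PSMA3 rose by 1.04 (standard error 0.23, adjusted p = 0.0126), and its untreated arrays were the lowest of all. The change of PSMA3 was under 2-fold without untreated duplicate 1 (0.86), EPI duplicate 1 (0.99) or EPI+LPS duplicate 2 (0.90), with an adjusted p of up to 0.0463. The other 5 alpha genes ranged from −0.17 (PSMA2) to 0.35 (PSMA1) and none passed the test, so the calls covered 2 of the 7 subunits of this ring. For PSMA1 and PSMA5 (0.22), all LPS arrays still lay above those without LPS.

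Among the non-catalytic beta genes, none of 4 passed the test, with values from −0.32 (PSMB2, adjusted p = 0.239) to 0.29 (PSMB4, adjusted p = 0.317). PSMA8, the testis form of an alpha subunit, and PSMB11, the thymus-specific beta-5 subunit, stayed under 6 on every array, PSMA8 at 3.81 to 4.58 and PSMB11 at 3.08 to 3.96. Their LPS effects of 0.19 and 0.22 did not pass the test.

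In the 19S particle, 1 lid subunit rose and 1 ATPase fell. PSMD11, a lid subunit known as a limiting factor of 26S assembly in human stem cells, measured 10.50 and 11.07 in untreated cells, 12.22 and 12.28 with LPS, 10.82 and 10.88 with epirubicin, and 12.13 and 12.39 with both. It rose by 1.44 (standard error 0.19, adjusted p = 9.69e-04), or 2.71-fold, with no overlap between arrays. The other 8 measured non-ATPase genes ranged from −0.46 (PSMD3, adjusted p = 0.0863) to 0.71 (PSMD1, adjusted p = 0.0526). PSMC2, which encodes the ATPase RPT1, measured 12.44 and 12.38 in untreated cells, 11.66 and 11.98 with LPS, 12.60 and 12.67 with epirubicin, and 11.67 and 12.01 with both. PSMC2 fell by 0.69 (standard error 0.17, adjusted p = 0.0237), but leaving out untreated duplicate 1 or 2, LPS duplicate 1, EPI duplicate 1 or 2, or EPI+LPS duplicate 1 lost the call, with an adjusted p of up to 0.0822 and values over all single omissions from −0.78 to −0.61. The other 4 ATPase genes were all above 0 without passing the test, up to 0.58 for PSMC1 (adjusted p = 0.0507).

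Of the activators and the inhibitor, PSME3 alone passed the test. PSME3 encodes PA28 gamma, the nuclear activator of the core particle. It measured 11.95 and 12.25 in untreated cells, 13.00 and 13.14 with LPS, 12.29 and 12.29 with epirubicin, and 13.17 and 12.99 with both. PSME3 rose by 0.88 (standard error 0.17, adjusted p = 0.00651), less than 2-fold, without overlap. PSME4, which encodes PA200, changed by −0.18, and PSMF1, the inhibitor PI31, by −0.41 (adjusted p = 0.116).

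Of the 4 assembly chaperone genes of the core, 2 fell with LPS. PSMG1, which pairs with PSMG2 to build the alpha ring, measured 8.43 and 9.17 in untreated cells, 8.11 and 7.76 with LPS, 8.66 and 9.56 with epirubicin, and 7.23 and 7.76 with both. Its duplicates differed by up to 0.89, and still no LPS array reached those without LPS. PSMG1 fell by 1.24 (standard error 0.28, adjusted p = 0.0145), and the call was lost without untreated duplicate 2, LPS duplicate 2 or EPI+LPS duplicate 1, with an adjusted p of up to 0.0535 and values over all single omissions from −1.46 to −1.02. PSMG3, the partner of PSMG4, measured 8.10 and 7.72 in untreated cells, 6.98 and 7.28 with LPS, 8.39 and 8.18 with epirubicin, and 7.25 and 7.46 with both, and fell by 0.86 (adjusted p = 0.0116). PSMG2 changed by −0.38 (adjusted p = 0.150) and PSMG4 by 0.62 (adjusted p = 0.171), so the members of each pair were not called alike. The 19S chaperones ranged from −0.43 (PSMD10) to 0.33 (PSMD9) and none passed. Over the whole family, the arrays with and without LPS did not overlap for 18 of 44 genes, 10 higher and 8 lower with LPS, beside 22.2% of all probe sets and 37.5% of those with a group mean of at least 6.

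The LPS effect was then taken separately in cells without and with epirubicin, 2 arrays against 2 in each case. Without epirubicin, PSMA6 (2.19), PSMD11 (1.46) and PSMA3 (1.41) were higher and PSMB9 (−1.32) and PSMB8 (−1.12) lower at the threshold of the study, which 5.4% of all probe sets passed upward and 6.28% downward. At an adjusted p of at most 0.05, PSME3 joined them at 0.97 (adjusted p = 0.0327), giving 4 higher and 2 lower, beside 5.25% and 6.15% of all probe sets. This adjusted count of 6 was 2 without untreated duplicate 1 or LPS duplicate 2 and 3 without LPS duplicate 1. PSMA3 failed the threshold of the study without untreated duplicate 1 (1.05, adjusted p = 0.147) or LPS duplicate 2 (1.36, adjusted p = 0.118). PSMB8 failed it without any of the 4 arrays compared, with values from −1.21 to −1.03. The adjusted calls of PSMB8 and PSME3 were each lost without any single untreated, LPS or EPI array, with PSME3 values from 0.82 to 1.12 over all single omissions. That of PSMD11 was lost without untreated duplicate 1 or LPS duplicate 2, with values from 1.18 to 1.75.

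With epirubicin, PSMA6 (1.98) and PSMD11 (1.41) were higher and PSMG1 (−1.61), PSMB8 (−1.22) and PSMB9 (−1.03) lower at both thresholds. The threshold of the study was passed by 5.46% of all probe sets upward and 6.59% downward, and the adjusted one by 5.4% and 6.39%. At the threshold of the study, this count of 5 was 2 without EPI duplicate 2 and 3 without EPI+LPS duplicate 1. At the adjusted threshold it was 1 without EPI duplicate 2, 2 without EPI duplicate 1 or EPI+LPS duplicate 1, and 3 without EPI+LPS duplicate 2. PSMB8 failed the threshold of the study without EPI duplicate 1 (−1.22) or 2 (−1.23) or EPI+LPS duplicate 1 (−0.85), PSMB9 without EPI duplicate 2 (−0.98) or EPI+LPS duplicate 1 (−0.998), and PSMG1 without EPI duplicate 2 (−1.17) or EPI+LPS duplicate 1 (−1.35). The adjusted call of PSMB9 was lost without any single EPI or EPI+LPS array, with values from −1.09 to −0.98 over all single omissions. That of PSMD11 was lost without EPI duplicate 1 or 2 or EPI+LPS duplicate 2, with values from 1.283 to 1.535. PSMB10 measured −0.96 here (adjusted p = 0.0839) and −0.47 without epirubicin (adjusted p = 0.410). The median of the 4 inducible genes minus that of the others was −0.995 without and −1.004 with epirubicin.

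No proteasome gene had a called difference between the 2 LPS effects (interaction contrast, limma), as was the case for all but 1 probe set on the array (0.00466%). At an unadjusted p under 0.05, which 7.3% of all probe sets reached, there was 1 gene, PSMD9, a 19S assembly chaperone also called p27. It measured 6.89 and 6.90 in untreated cells, 6.73 and 6.65 with LPS, 6.67 and 6.39 with epirubicin, and 7.21 and 7.58 with both. The EPI+LPS arrays were the highest of the 8, with a difference of the LPS effects of 1.07 (standard error 0.35, adjusted p = 0.610). For the inducible genes the differences were 0.29 for PSMB9 (95% interval −0.43 to 1.01), −0.10 for PSMB8 (−1.03 to 0.82), −0.49 for PSMB10 (−1.48 to 0.50) and −0.37 for PSME1 (−1.24 to 0.51). Each of these intervals reached past a 2-fold difference on 1 side and stopped short of it on the other.

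**Figure D3:**
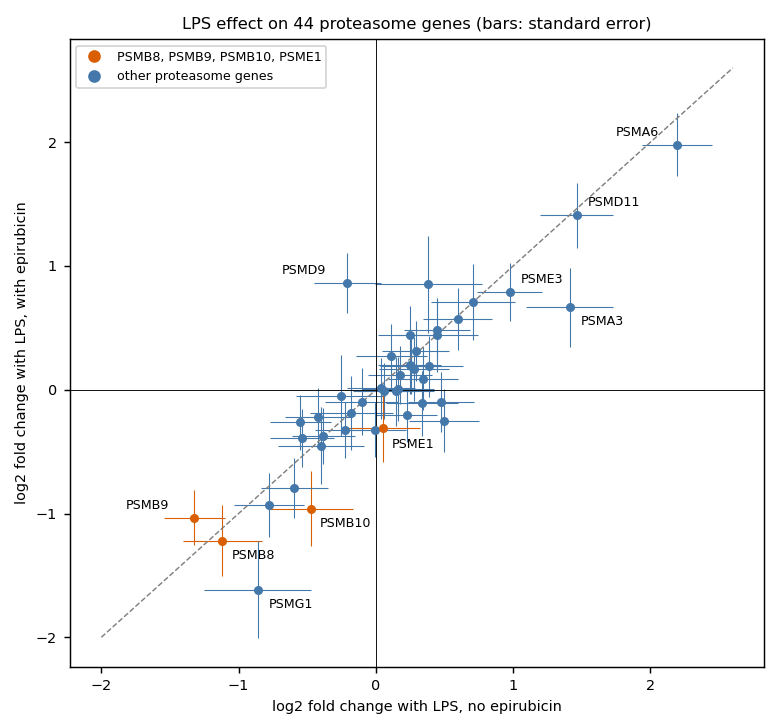
Log2 fold change with LPS without epirubicin (horizontal axis) and with epirubicin (vertical axis) for the 44 proteasome genes, with standard errors as bars and a dashed line of equal effects. PSMB8 and PSMB9 (orange) lie at −1.12 and −1.22, and −1.32 and −1.03, PSMA6 at 2.19 and 1.98, and PSMD9 lies farthest above the line.

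Epirubicin moved no proteasome gene past either threshold in the limma model used throughout. This held for epirubicin without LPS (EPI against untreated, where 2.26% of all probe sets passed the threshold of the study), with LPS (EPI+LPS against LPS, 2.66%) and for the mean of both effects (0.457% at an adjusted p of at most 0.05). At an unadjusted p under 0.05 there were 1, 2 and 3 proteasome genes in these comparisons, beside 10.2%, 10.9% and 13.8% of all probe sets. The mean epirubicin effect ranged from −0.38 (PSME1, 95% interval −0.82 to 0.06) to 0.66 (PSMA3, interval 0.14 to 1.18, adjusted p = 0.259). For 42 of the 44 genes the 95% interval lay within a 2-fold change in either direction. Arrays with and without epirubicin did not overlap for 1 gene, PSMD8, a lid subunit (0.20, adjusted p = 0.639), beside 4.88% of all probe sets.

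PSMA3 was the member closest to a call. Its untreated arrays of 8.28 and 9.01 lay below the EPI arrays of 9.58 and 9.78, a difference of 1.03 without LPS (unadjusted p = 0.0114, adjusted p = 0.339), while with LPS it was 0.29 (adjusted p = 0.804). The untreated arrays are shared by this comparison and that of LPS against untreated, where PSMA3 differed by 1.41. A prior variance that follows the mean level, and leaving out untreated duplicate 2 (1.40), each took it past the threshold of the study, with adjusted p-values of 0.0836 and 0.446. PSMB9 had a mean epirubicin effect of 0.45 (interval 0.09 to 0.81, adjusted p = 0.268), with 0.30 in cells without LPS and 0.59 in cells with LPS (adjusted p = 0.389). With a prior variance that follows the mean level, the adjusted p of the mean effect on PSMB9 was 0.0310, the only such call among the alternatives with all arrays. Its EPI+LPS arrays lay above its LPS arrays and its EPI arrays above the untreated ones. PSMD10, the 19S chaperone gankyrin, changed by 0.55 (interval 0.05 to 1.05, adjusted p = 0.326). PSMB8 and PSMB10 had mean epirubicin effects of −0.24 and 0.05. The lowest and highest values in the other role groups were −0.29 (PSMA7) in the alpha ring, −0.08 (PSMB1) and 0.27 (PSMB3) in the non-catalytic beta genes, −0.24 (PSMB7) and 0.12 (PSMB5) in the constitutive catalytic ones, −0.06 (PSMC3) and 0.14 (PSMC6) in the ATPases, 0.02 (PSMD14) and 0.31 (PSMD4) in the non-ATPases, and −0.21 (PSMG2) and 0.30 (PSMG3) in the core chaperones. PSMD5 stood lowest among the 19S chaperones at −0.06, PSME4 (−0.16) and PSME3 (0.10) bounded the activators and inhibitor, and PSMA8 and PSMB11 changed by −0.19 and −0.34. The median of the inducible genes minus that of the others was −0.15, again a description without a test.

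**Figure D4:**
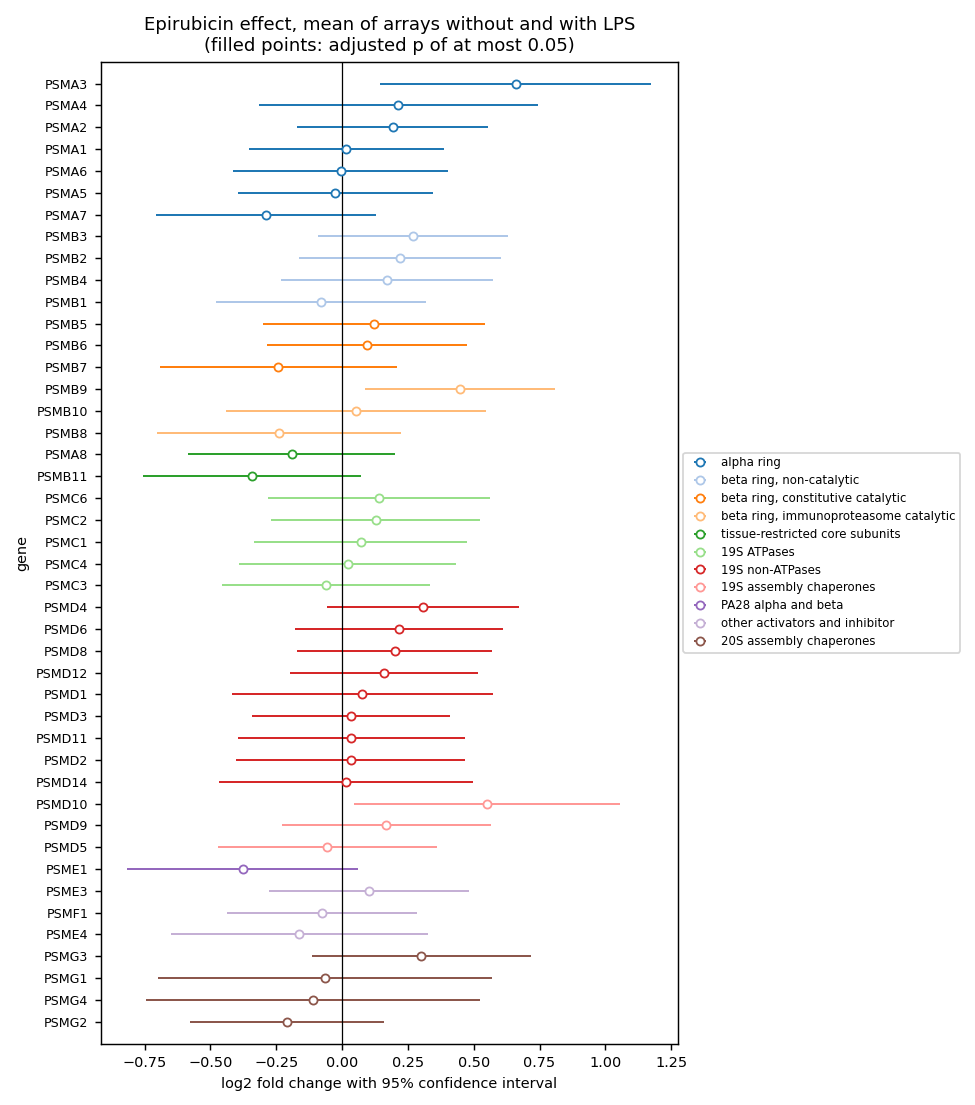
The change with epirubicin (horizontal axis, log2 fold change, mean of the effects without and with LPS) of each of the 44 proteasome genes (rows, coloured by role), with 95% confidence intervals from the limma model. All points are open, as no gene reached an adjusted p of 0.05, and they span −0.38 (PSME1) to 0.66 (PSMA3).

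Genes that supply and direct the proteasome were set beside its subunits, from a list of 28 pathway genes of which 24 were measured. With LPS, 5 of the 24 rose and 3 fell, with a median of 0.16. Beside them, 8.26% of all probe sets rose and 11.9% fell, and 14.2% and 21% of those with a group mean of at least 6. The largest rise was in NFE2L2, which encodes the oxidative stress factor NRF2, a known activator of proteasome genes. NFE2L2 measured 11.26 and 11.10 in untreated cells, 13.06 and 13.11 with LPS, 11.33 and 11.50 with epirubicin, and 13.53 and 13.30 with both, a rise of 1.95 (standard error 0.16, adjusted p = 7.46e-05). NFE2L1, whose product induces proteasome genes when the proteasome is impaired, changed by −0.20 (adjusted p = 0.486), while NGLY1, the enzyme that processes this factor, fell by 0.80 (adjusted p = 0.0177) with overlapping arrays, by 0.12 without and 1.47 with epirubicin. The difference of these 2 effects, −1.35 (unadjusted p = 0.0064), passed the threshold of the study but not the adjusted one (adjusted p = 0.590).

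The ubiquitin receptor gene ADRM1 rose and the gene of its partner UCHL5, a deubiquitinase of the 19S particle, fell. ADRM1 measured 10.39 and 10.35 in untreated cells, 11.59 and 11.59 with LPS, 10.61 and 10.85 with epirubicin, and 11.82 and 11.84 with both, and rose by 1.16 (adjusted p = 0.00123). UCHL5 measured 11.74 and 12.04 in untreated cells, 11.10 and 10.98 with LPS, 12.47 and 12.13 with epirubicin, and 11.39 and 11.36 with both, and fell by 0.89 (adjusted p = 0.00755). Neither overlapped. The shuttle gene UBQLN4 (1.07, with 1.49 without and 0.66 with epirubicin), the unfoldase gene VCP (0.76) and the deubiquitinase gene USP14 (0.64) rose, and PITHD1 fell by 1.07. The effect of epirubicin, without LPS, with LPS or as the mean, passed neither threshold for any of the 24.

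Of 24 listed genes of class I antigen processing and its regulators, 19 were measured, and with LPS 2 rose and 1 fell. Beside them, 8.26% of all probe sets rose and 11.9% fell, and 14.2% and 21% of those with a group mean of at least 6. TAP1, between PSMB8 and PSMB9, measured 9.05 and 9.19 in untreated cells, 10.91 and 10.28 with LPS, 9.20 and 8.97 with epirubicin, and 11.44 and 11.30 with both. All LPS arrays lay above all others, and TAP1 rose by 1.88 (standard error 0.19, adjusted p = 2.64e-04), while the genes on both sides of it fell. TAP2, on the other side of PSMB8, changed by 0.21 (adjusted p = 0.563). IRF8, a transcription factor gene of myeloid cells whose product binds interferon response elements, measured 11.41 and 11.11 in untreated cells, 13.21 and 13.54 with LPS, 11.41 and 10.54 with epirubicin, and 13.96 and 14.23 with both, and rose by 2.62 (adjusted p = 1.11e-04). TPP2, a peptidase acting after the proteasome, fell by 0.80 (adjusted p = 0.0219). With epirubicin, NLRC5, the class I transactivator, differed by −1.73 without LPS (adjusted p = 0.256) and −0.47 with LPS. Its mean epirubicin effect was −1.10 (adjusted p = 0.172). ERAP2 differed by 1.60 with LPS (adjusted p = 0.275). All of these values but −0.47 passed the threshold of the study alone. Of all probe sets, 2.26% passed it with epirubicin in cells without LPS and 2.66% in cells with LPS. NLRC5 stayed under 6 on every array, and ERAP2 on 7 of 8, with LPS duplicates of 3.98 and 5.32.

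**Figure D5:**
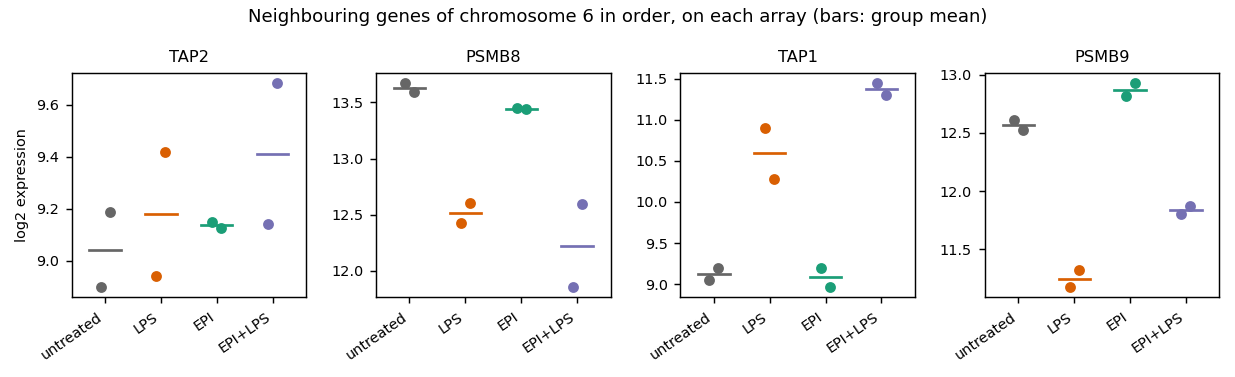
Log2 expression (vertical axes, each on its own scale) of TAP2, PSMB8, TAP1 and PSMB9, neighbours on chromosome 6 in this order, on each array (points) with the mean of the 2 duplicates (bars). PSMB8 and PSMB9 are lower with LPS (by 1.17 and 1.18), TAP1 between them is higher (by 1.88), and TAP2 overlaps.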

How the data were processed

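The authors hybridised RNA of PMA-differentiated THP-1 to 8 Clariom S HT arrays, normalized them together (named SST-RMA in the methods but RMA in the labels, with the version not given in the sources used here), and deposited log2 expression values, which were used without further normalization. This scaling removes shifts shared by all genes. Of 24351 rows, 2903 controls were left out. Probe sets were named by the platform table, and the brightest on average stood for its gene. Columns were matched to samples by title.

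The 4 groups were fitted in 1 model with limma 3.58.1 (R 4.3.3), with empirical Bayes moderation and 4 residual degrees of freedom. The threshold of the study (unadjusted p of at most 0.01, at least 2-fold) and Benjamini-Hochberg adjusted p-values over 21448 probe sets were used. The scripts were tested on simulated data. Alternatives were another prior variance, 4-array fits, a replicate block, other scalings, a filter on dim probe sets and leaving out each array. The number of arrays limits the precision.

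Members and gene lists were chosen with earlier results of these data known. Genes named are the inducible and constitutive catalytic genes, every called member, the extremes of each role group in both mean effects, the tissue-restricted members, and called genes of the other lists; names beyond this rule were chosen after their values were seen. Promoter windows came from RefSeq (GRCh38.p14). Figures were drawn with Python 3.11.15 and matplotlib 3.10.9.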

Additional observations from a re-analysis of the deposited data

How the results depend on the processing

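With 2 arrays a group, single arrays decided some calls. At the threshold of the study, the count of proteasome genes called with LPS was 5 without epirubicin and 3 to 5 on leaving out single arrays (3 without untreated duplicate 1 or LPS duplicate 2), and with epirubicin it was 5 and 2 to 6. For epirubicin without LPS the count of 0 became 1 (PSMA3) with a mean-dependent robust prior, 1 with the replicate block (again PSMA3, adjusted p = 0.318), and 0 to 1 on leaving out arrays. The deviations of same-numbered duplicates correlated at −0.009 to 0.023 over 6 pairs of groups, which cannot show whether these duplicates shared an origin. The replicate block changed no other call at that threshold. At an adjusted p of at most 0.05, the counts of 6 (LPS against untreated), 5 (EPI+LPS against EPI) and 10 (mean LPS effect) became 11, 10 and 15 with the mean-dependent robust prior, 7, 10 and 15 without dim probe sets, and 4, 5 and 9 with the replicate block, and 5 and 2 for the first pair in fits of 4 arrays. On leaving out single arrays these counts were 2 to 6, 1 to 5 and 7 to 11. Leaving out single arrays moved the median of the inducible genes minus that of the others from −1.265 to −0.844 for LPS with epirubicin, −0.622 to 0.086 for epirubicin with LPS, −0.346 to 0.009 for the mean epirubicin effect, and −0.372 to 0.142 for the difference of the LPS effects, with both ends set by leaving out one or the other EPI+LPS array. PSMB8 changed sign in EPI+LPS against LPS, with −0.292 on all arrays and −0.660 to 0.077 on leaving out 1, reversed without EPI+LPS duplicate 1, none called. The other 191 values of counts and medians stayed within 1.5 times or the duplicate spread. For single genes, 1593 values kept their side of the threshold, 18 lost and 6 gained it, where an uncalled value within 1 standard error of 0 was given no direction. The cause of these shifts was not tested. Depth is not a property of these arrays, and signals under 6 were treated as low.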

Other observations

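The neighbours of PSMA6 on chromosome 14 were read after its values had been seen. NFKBIA, which encodes the NF-κB inhibitor IκBα and is the next measured gene (chr14:35401513-35404749, RefSeq, GRCh38.p14), was 5.07 higher with LPS on the log2 scale (limma, adjusted p = 4.81e-07). Before PSMA6, FAM177A1 was 1.30 higher (adjusted p = 9.73e-04), SRP54 1.13 higher (adjusted p = 0.00219) and PPP2R3C 0.87 higher (adjusted p = 0.0381), while PRORP, directly beside PSMA6, changed by 0.02 (adjusted p = 0.955). Beyond NFKBIA, INSM2 and RALGAPA1 changed by 0.17 and 0.13 without passing the test, and MBIP was lower, at −1.03 (adjusted p = 0.00887). Around PSMB8 and PSMB9 on chromosome 6, HLA-DOB changed by −0.22, HLA-DMA by 0.07, BRD2 by 0.31, HLA-DOA by 0.02 and HLA-DPA1 by 0.36, none past the test.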
